A study of Mus musculus with 9 samples.

Results

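The autosomal read density of the input library titled BVSC was compared with that of the input titled BV, bin by bin along chromosomes 1 to 19. The 2472353 autosomal windows among the 2654924 windows of the series were summed in fixed bins, and the counts of a library were divided by its autosomal mean. A bin was used where input BV averaged at least 0.5 on that scale, which kept 2357 of 2482 bins of 1 Mb, 23272 of 24731 bins of 100 kb and 114838 of 123624 bins of 20 kb. The series holds 9 libraries on the binding of SMAD1, T and TCF1 during the induction of primordial germ cell-like cells from epiblast-like cells of the mouse. Input BVSC and input BV are both labelled as C57BL/6 epiblast-like cells of the Blimp1-mVenus reporter genotype (BV), with no antibody and no time. Input PV, the remaining input, is labelled as the same strain and cell type with a Prdm14-mVenus reporter (PV). The 4 immunoprecipitated BV libraries are SMAD1 at 12, 24 and 36 h and TCF1, and the 2 of the PV line are SMAD1 at 36 h and T. All 9 came from embryonic stem cells carried through the same culture, with leukaemia inhibitory factor and with or without BMP4 and WNT3A, and the labels do not say which library received which. Each group is 1 library and the labels do not say how many clones or cultures went into it, so no difference below has a replicate check.

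An input library is sheared chromatin sequenced without immunoprecipitation, and its reads fall along the genome roughly in proportion to how many copies of each stretch the cells hold. Mouse embryonic stem cells are known to gain whole chromosomes in culture, chromosome 8 most familiarly, and a culture can mix cells with and without the extra copy. As arithmetic, if every cell held 1 copy more than the usual pair the level would be 1.5 times that of the other autosomes, and with 1 copy lost it would be 0.5 times. A ratio of 2 libraries does not show which of them departs from the usual pair. The name BVSC is known from the field for a line with a Blimp1-mVenus and a Stella-ECFP reporter, whereas the labels here name the Blimp1-mVenus reporter alone. Blimp1 is the product of Prdm1, a transcriptional repressor needed to found the germ line, and Stella is the product of Dppa3, a maternal and germ cell protein that protects DNA methylation in the early embryo. The libraries hold genomic DNA, so the labelled cell type could not be checked against marker genes.

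Input BVSC held 46750433 reads and input BV 134657262, counted in every other window, and input PV held 42532115. A 2 kb window of the autosomes held on average 36.8 reads in input BVSC and 106 in input BV. In input BVSC the overlapping windows could not be split into 1 kb bins (47.3% of such bins came out below 0, against 0% in the other 8 libraries), and the cause was not tested. The bins were taken by alternating sums from the start of each chromosome, which carry an inconsistent window into all later bins. The share therefore does not count inconsistent windows. Sums over every other window starting at the first and at the second position differed there by a ratio of 0.999.

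Chromosomes 3, 6, 8, 11 and 14 stood apart from the other 14 autosomes, in 2 different ways. On chromosomes 8, 11 and 14 the whole chromosome was shifted, and on chromosomes 3 and 6 the level changed in steps along the chromosome. The median ratio of input BVSC to input BV over 1 Mb bins ranged from 0.918 on chromosome 19 to 1.03 on chromosome 16 over the 14 other autosomes, with a median of 0.966. Against that range, chromosome 8 stood at 1.19 ± 0.030 (SD over 124 bins) and chromosome 14 at 1.17 ± 0.056 (113 bins), both higher in input BVSC. Chromosome 11 stood at 0.808 ± 0.025 (119 bins), lower in input BVSC. Bins are not replicates, and these SDs describe evenness along a chromosome. Ratios of summed reads, with exact Clopper-Pearson 95% intervals that cover counting error alone, were 1.186 on chromosome 8 (1.184 to 1.187), 1.158 on chromosome 14 (1.156 to 1.159) and 0.807 on chromosome 11 (0.806 to 0.808).

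**Figure D1:**
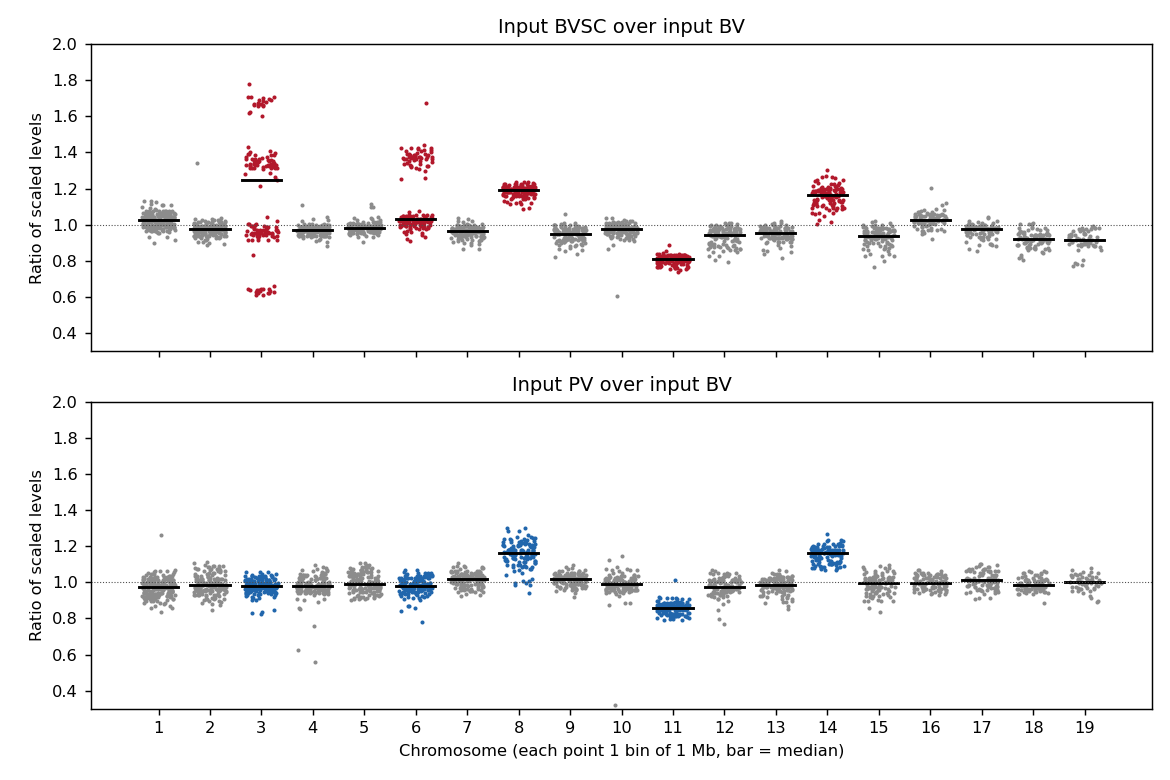
Ratio of scaled levels in bins of 1 Mb (points) for each autosome, with the median as a bar, for input BVSC over input BV (top) and input PV over input BV (bottom). Chromosomes 3, 6, 8, 11 and 14 are coloured: in the upper panel chromosome 3 falls into separate bands and chromosome 6 into a lower and a higher one, whereas chromosomes 8, 11 and 14 form a single band each, at medians of 1.19, 0.808 and 1.17.

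Chromosome 8 was raised from end to end. All 124 of its bins lay above 1, between 1.09 and 1.24, and its blocks of 10 Mb had medians between 1.15 and 1.21. Relative to the median of the 14 other autosomes it stood at 1.23. Chromosome 14 was raised throughout as well, with all 113 bins above 1, but less evenly: its 10 Mb blocks ran from 1.098 to 1.216, the lowest starting at 40000001 and the highest at 110000001. Relative to the other autosomes it stood at 1.21. Chromosome 11 had 0 of 119 bins above 1, its bins lay between 0.736 and 0.886, and relative to the other autosomes it stood at 0.836.

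As chromosome medians, the shifts of chromosomes 8, 11 and 14 were present against input BV but not against input PV. Over input PV, input BVSC measured 1.02 on chromosome 8, 0.931 on chromosome 11 and 0.989 on chromosome 14, all inside the range of the 14 other autosomes in that comparison (0.918 to 1.06). Some 1 Mb bins still passed 1.1 or 0.9 there, in part as runs of adjoining bins. Those at 1.1 or more were 12.1% of chromosome 8 and 14.2% of chromosome 14, beside 11.1% of all bins. Those at 0.9 or less were 19.3% of chromosome 11 and 6.2% of chromosome 14, beside 9.15% of all bins. Input PV over input BV measured 1.16, 0.859 and 1.16 on the same chromosomes, beside 1.19, 0.808 and 1.17 for input BVSC. Both comparisons share input BV. The 4 immunoprecipitated BV libraries over input BV ranged from 1.02 to 1.04 on chromosome 8, from 0.976 to 1.00 on chromosome 14 and from 0.971 to 1.11 on chromosome 11. On chromosomes 8 and 14 they thus lay with input BV, and on chromosome 11 SMAD1 at 36 h (1.11) and TCF1 (1.09) lay above it. These libraries were immunoprecipitated, and their 1 Mb ratios scatter more than those of the inputs, with an SD on chromosome 8 between 0.11 and 0.197 against 0.030 for input BVSC.

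On chromosome 3 a whole-chromosome level does not describe the data. Its median over 157 bins was 1.25 and its ratio of summed reads 1.16, but its bins ran from 0.613 to 1.78, most of them in 4 bands. Dividing 100 kb bins into stretches of constant level gave 6 segments, called A to F here from the centromere outwards, a step chosen after the bands had been seen. Segment A, 57.2 Mb long and ending at 60194000, had a median of 0.962 (SD 0.047 over 564 bins), the level of the other autosomes. In segment B, from 60194001 to 77062000 (16.9 Mb), the median was 1.68 (SD 0.059, 165 bins). It was followed by segment C, of 1.05 Mb up to 78112000, with a median of 0.953 over 10 bins, all of them inside the range of segment A. In segment D, from there to 81964000 (3.85 Mb), the level was again 1.69 (SD 0.048, 37 bins). Segment E, the next 59.3 Mb to 141280000, stood at 1.35 (SD 0.055, 576 bins). Segment F, the last 18.3 Mb, stood at 0.634 (SD 0.029, 183 bins).

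Divided by segment A, these levels came to 1.75 for B, 0.990 for C, 1.76 for D, 1.40 for E and 0.659 for F. The raised segments B and D, on either side of C, thus had nearly the same level, while E lay below both. No 100 kb bin of B, D, E or F fell inside the range of A (0.840 to 1.12). Summed reads gave the same order. Segment B held 483011 reads in input BVSC and 824644 in input BV (ratio 1.686, interval 1.680 to 1.692), and F held 223840 and 1016215 (0.634, 0.631 to 0.637). Segment E, with 1507368 and 3234465 reads, had a ratio of 1.341 (1.339 to 1.344).

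Each step was placed by fitting a single abrupt split, so the spans below show where a step lies and not how abrupt it is. By the split of non-overlapping windows with the highest binomial likelihood, the first step of chromosome 3 lay at 60194001, with positions up to 60200001 within 3 log-likelihood units. Segment C was bounded at 77062001 (77054001 to 77068001) and 78112001 (78108001 to 78112001). The step down to E lay at 81964001, with the widest span of the 6 steps (81956001 to 81976001, 20 kb). The step to F lay at 141280001, with no other window within 3 units.

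Chromosome 6 had a single step. Its first 91.6 Mb had a median of 1.01 (SD 0.050 over 908 bins of 100 kb), near the highest of the other autosomes. From 94870001 (94868001 to 94874001) to the end, over 54.6 Mb, the median was 1.37 (SD 0.124 over 531 bins), or 1.36 times the first part. Of these 531 bins, 6 fell inside the range of the first part. The raised part held 1416091 reads in input BVSC and 2974893 in input BV, a ratio of 1.370 (1.367 to 1.373). Because the step lies past the middle of the chromosome, the median over all of its 1 Mb bins was 1.033, just above the highest of the other autosomes (1.026), while the ratio of summed reads was 1.15.

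**Figure D2:**
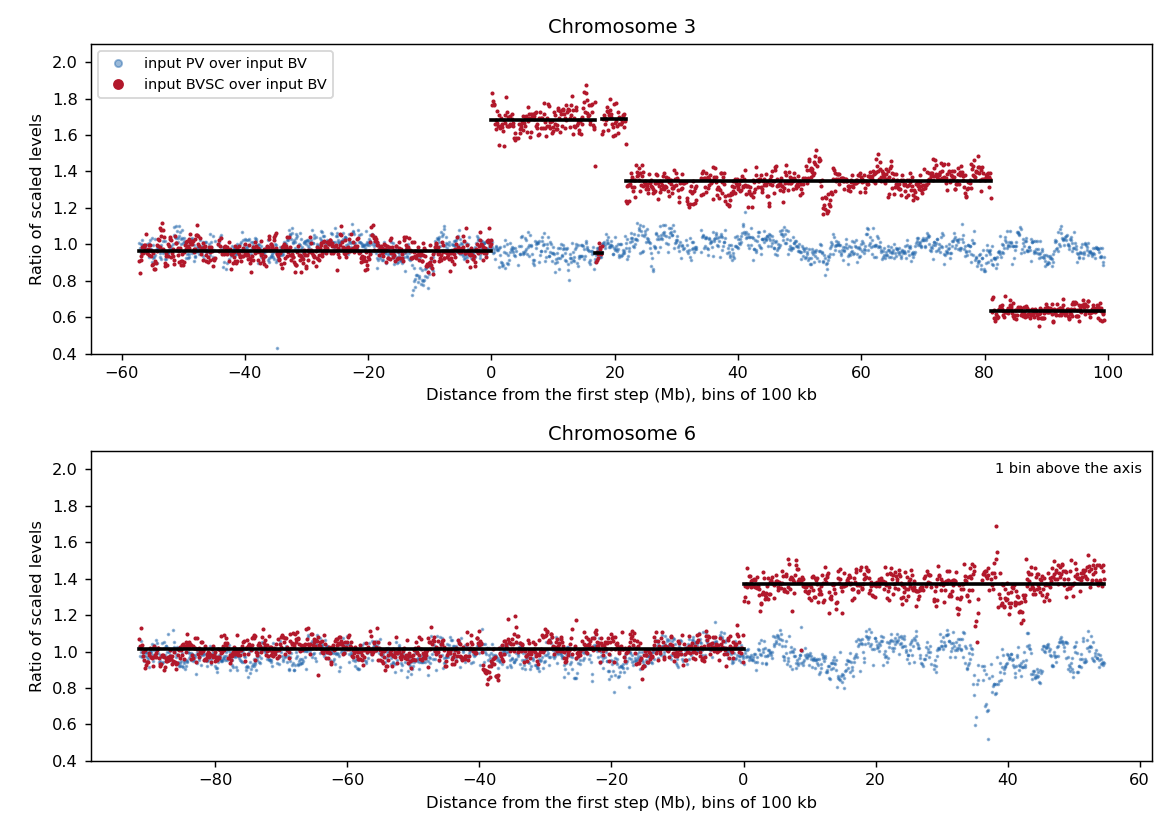
Ratio of scaled levels in bins of 100 kb along chromosomes 3 and 6, against the distance from the first step in Mb, for input BVSC over input BV (red) and input PV over input BV (blue), with the segment medians as black lines. Red points on chromosome 3 step from 0.962 to 1.68, back to 0.953 for 1.05 Mb, to 1.69, 1.35 and 0.634, and on chromosome 6 from 1.01 to 1.37, whereas blue points stay near 1.

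None of the 7 further libraries, set over input BV, had levels near these. In segment B, where input BVSC had 1.68, input PV had 0.959, SMAD1 in BV 0.878 at 12 h, 0.903 at 24 h and 0.868 at 36 h, TCF1 0.801, SMAD1 in PV 0.863 and T 0.835. In E they lay between 0.956 and 0.990 and in F between 0.918 and 0.975, beside 1.35 and 0.634 in input BVSC. In the raised part of chromosome 6 they lay between 0.973 and 1.05, beside 1.37. The immunoprecipitated libraries also dipped in C, to 0.677 in TCF1 and 0.745 in T, where input BVSC (0.953) and input PV (0.962) did not differ by more than the SD over bins. Set over input PV, input BVSC had 1.76, 1.72, 1.35 and 0.647 in segments B, D, E and F and 1.39 in the raised part of chromosome 6.

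**Figure D3:**
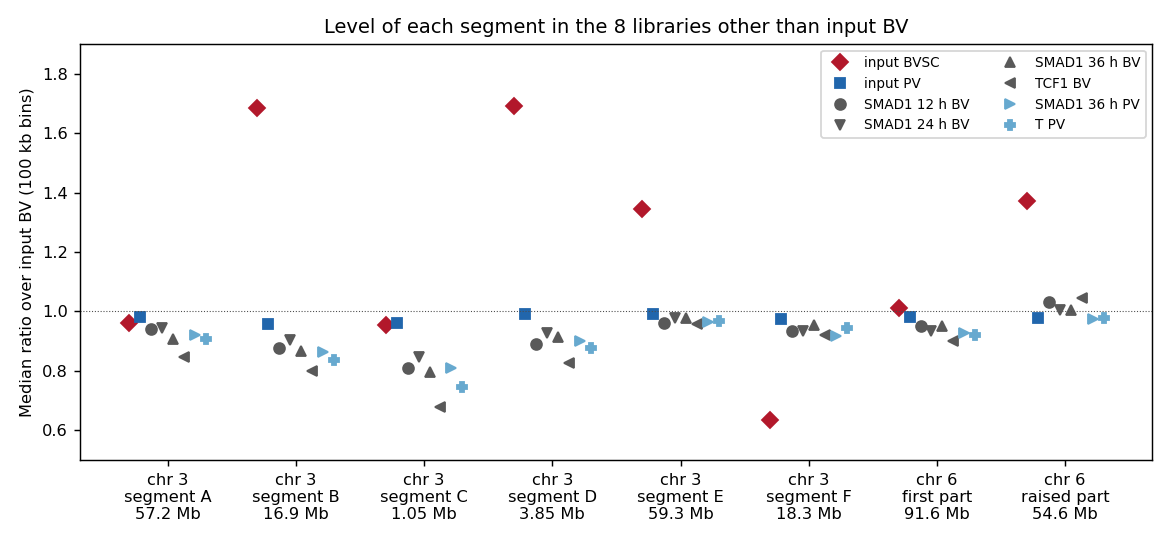
Median ratio over input BV in each segment of chromosomes 3 and 6 (100 kb bins) for 8 libraries, with the length of the segment under it. Input BVSC (red diamonds) lies at 1.68, 1.69, 1.35, 0.634 and 1.37 in the shifted segments, and the other 7 libraries lie between 0.801 and 1.05 in those segments.

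Bins of 1 Mb called higher lay mostly on the 5 chromosomes, and those called lower were spread more widely. Of the 2357 bins of 1 Mb, chromosomes 3, 6, 8, 11 and 14 held 157, 146, 124, 119 and 113. At 1.1 or more, 365 of 2357 bins of 1 Mb were called higher (15.5% of all bins), and 352 of these (96.4%) lay on the 5 chromosomes. The called bins were 122 of 124 on chromosome 8, 96 of 113 on chromosome 14, 80 of 157 on chromosome 3 and 54 of 146 on chromosome 6. The 5 chromosomes were named with earlier results of these data known. Calls falling on them therefore restate their levels and are no separate support. At 0.9 or less, 277 were called lower (11.8%), and 138 of these (49.8%) lay on the 5 chromosomes, namely all 119 bins of chromosome 11 and 19 of chromosome 3 (12.1% of that chromosome). The other 139 lay on other autosomes, whose median level was 0.966. They made up 34.5% of the bins of chromosome 19, 29.5% of chromosome 18, 23.8% of chromosome 15 and 23.2% of chromosome 12. The same limits called 205 (8.7%) higher and 170 (7.21%) lower for input PV over input BV, and 260 (11.1%) and 215 (9.15%) for input BVSC over input PV. In bins of 100 kb, 1154 of 23272 had 1.3 or more (4.96%) and 194 had 0.7 or less (0.834%). Chromosome 3 held 666 of the higher and 181 of the lower bins, and chromosome 6 held 451 of the higher. Chromosomes 8 and 14, raised as wholes by less than 1.3, held 9 and 25. The same limits on input PV over input BV called 51 (0.219%) and 41 (0.176%), and on input BVSC over input PV, 1119 (4.82%) and 175 (0.754%).

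In bins of 20 kb, set over the median of their own chromosome, 302 of 114838 had 1.5 or more (0.263%) and 182 had 0.5 or less (0.158%). Most of these restate the steps, since chromosome 3 held 256 of the former and 179 of the latter, and chromosome 6 held 31 of the former. Input PV over input BV had 20 (0.0174%) and 73 (0.0636%), and input BVSC over input PV had 714 (0.625%) and 179 (0.157%). Of the 10 merged stretches with the largest rise, 5 lay on chromosome 3 (1.69 to 1.76 times the chromosome) and 2 on chromosome 6. The 10 with the largest fall all lay in segment F of chromosome 3, at 0.422 to 0.442. Set over the segment they lie in, a comparison added after the steps were seen, 16 bins were raised and 3 lowered. Of the 16, 9 adjoining bins lay on chromosome 2 and 1 lay on chromosome 6, and these were the gains that stood out by size.

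The strongest focal gain was a stretch of 22 kb on chromosome 6, from 122559001 to 122581001. No annotation of mm9 was used here, and from general knowledge this is the place of Dppa3. Input BVSC held 5561 reads there in non-overlapping windows, against 1122 in input BV and 334 in input PV. On the scaled levels this was 15.1 in input BVSC, 1.06 in input BV and 0.997 in input PV. The immunoprecipitated libraries stood at 1.63, 1.16 and 1.22 for SMAD1 in BV at 12, 24 and 36 h, 1.08 for TCF1, 1.5 for SMAD1 in PV and 1.12 for T. Input BVSC was therefore the single library of 9 above 2. The ratio to input BV was 14.3 (13.4 to 15.2), or 13.8 over all overlapping windows, and that to input PV was 15.16 (13.57 to 16.98). Flanks of equal length had a ratio of 1.29 (1.2 to 1.38), since the stretch lies in the raised part of chromosome 6, and the gain over these flanks was 11.1 times. Every inner window was raised, between 10.6 and 18.4 times. The edges were sharp: the last window before the stretch held 63 reads in input BVSC and the first inside it 238, and at the far edge the counts went from 357 to 58.

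The other focal gain was longer and lower. On chromosome 2, from 77708001 to 77865001 (157 kb), input BVSC held 9135 reads against 7396 in input BV and 2280 in input PV. Scaled levels were 3.18 in input BVSC, 0.896 in input BV and 0.873 in input PV, and the 6 immunoprecipitated libraries lay between 0.818 and 0.865. The ratio to input BV was 3.56 (3.45 to 3.67) and to input PV 3.65 (3.48 to 3.82), while the flanks had 0.997 (0.967 to 1.03). Of the 154 inner windows, 11 had no read in input BV, and 12 had none in input PV. Ratios to input BV in the windows with reads there ran from 0 to 12.1, and windows with few reads were not set apart. The median ratio was 3.54, which also counts windows with reads in input BVSC and none in input BV. From general knowledge this part of chromosome 2 includes Cwc22, which encodes a splicing factor, and a segment known for copy number that varies among mouse strains. At the edges, input BVSC went from 57 to 148 reads and from 118 to 46.

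On chromosome 17 the difference ran the other way, as a stretch that was almost empty in input BV. From 86683001 to 86712001 (29 kb), input BV held 4 reads, against 319 in input BVSC and 298 in input PV, although input BV was the deepest library. The ratio of input BVSC to input BV was 229.5 (88.8 to 847.5), its width set by the 4 reads, and that of input BVSC to input PV was 0.975 (0.830 to 1.15). The stretch was nearly empty in the immunoprecipitated BV libraries too, with 1 read in SMAD1 at 12 h, 8 at 24 h, 1 at 36 h and 9 in TCF1. Both immunoprecipitated PV libraries covered it, with 298 reads for SMAD1 and 153 for T. Input BVSC, labelled as the BV genotype, thus lay with the PV libraries here. In the libraries that covered it, the stretch stood below its flanks: at 0.549 of the flank level in input BVSC and 0.508 in input PV, and at 0.490 and 0.457 in the SMAD1 and T libraries of the PV line. The cause of the lower level was not tested. In a scan for windows at 0.1 or less in input BV and at 0.4 or more in both other inputs, a rule set after the stretch was known, 26 of 29 windows lay in it. The same scan for input BVSC found 12 windows, of which none adjoined another. The edges in input BV were complete from 1 window to the next: 76 reads in the last window before the stretch, 0 in the first and last inside it and 80 in the first after it.

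**Figure D4:**
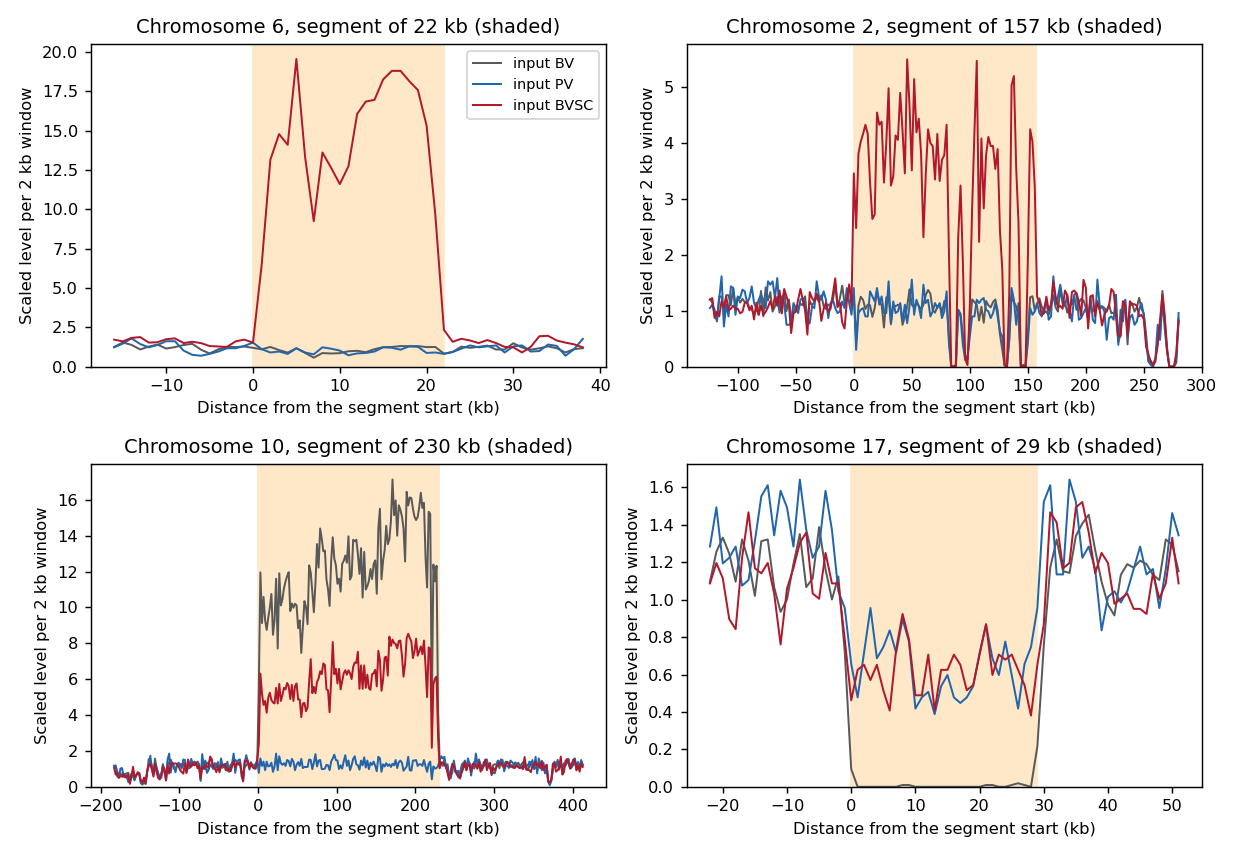
Scaled level per 2 kb window in input BVSC (red), input BV (grey) and input PV (blue) around the stretches of chromosomes 6, 2, 10 and 17 (shaded), against the distance from the start of each in kb. Input BVSC alone is raised on chromosomes 6 and 2, input BV stands at 12.2 and input BVSC at 6.13 on chromosome 10, and input BV is near 0 on chromosome 17.

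Beside these, 1 called bin led to a stretch raised in both inputs of the BV genotype. On chromosome 10 the bin from 44160001 to 44180000 was called lower in input BVSC, at 0.490 of its chromosome, and it lay inside 230 kb, from 44090001 to 44320001, where input BVSC exceeded 2. From general knowledge this stretch holds Prdm1, the gene of the labelled reporter. Scaled levels were 12.2 in input BV, 6.13 in input BVSC and 1.25 in input PV. The immunoprecipitated BV libraries stood with input BV, at 11.9, 12.1 and 12.9 for SMAD1 at 12, 24 and 36 h and 12.5 for TCF1, and those of PV at 1.45 and 1.42. With 25923 reads against 148260, the ratio of input BVSC to input BV was 0.503 (0.497 to 0.510), and no inner window left the range from 0.413 to 0.607. At the edges, input BV went from 132 to 591 reads and from 431 to 149, and input BVSC from 56 to 88 and from 100 to 38. After the level of the flanks was taken off, the excess in input BVSC was 0.460 of that in input BV.

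For a list of 14 germ cell and pluripotency genes, the RefSeq table of GRCm38.p6 gave the chromosome, and positions were not carried over to mm9. On the 5 shifted chromosomes lay 4 of them. Nanos3, which encodes an RNA-binding protein of migrating germ cells, lies on chromosome 8, which stood at 1.19. Dppa3 and Nanog, the latter a pluripotency factor, lie on chromosome 6, from general knowledge in the distal part that stood at 1.37. At the 22 kb stretch placed at Dppa3 above, the ratio was 14.3. Sox2, a partner of OCT4 in pluripotent cells, lies on chromosome 3, from general knowledge in segment A that stood at 0.962. The other 10 (Prdm1, Prdm14, Tfap2c, Pou5f1, Klf4, Esrrb, T, Kit, Ddx4 and Dazl) lie on chromosomes with median ratios between 0.946 and 1.02. A chromosome median is not the level at the gene, as Dppa3 and Prdm1 show. Chromosome 6 stood at 1.03 and the stretch at Dppa3 at 14.3, and chromosome 10 stood at 0.978 and the stretch at Prdm1 at 0.503.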

How the data were processed

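The deposited values are unnormalized read counts, whole numbers for 2 kb windows that start every 1 kb. The submitters' processing notes name Bowtie 0.12.8 and mm9. How duplicate reads were handled was not given in the sources used here. Coordinates are mm9 window positions as deposited. Windows were assigned to bins of 1 Mb, 100 kb or 20 kb by their start, and a library's level is its mean count per window over its autosomal mean. Reads and intervals come from every other window. Long segments are an optimal partition of log2 ratios in 100 kb bins (penalty 3, at least 10 bins, neighbours within 0.1 merged). The division into segments, before neighbours were merged, and the 20 kb calls were tested on simulated data. The merging and the refined breakpoints were not, and no simulated long segment was as short as segment C. There is no test between libraries, because each group is 1 library. Named regions are the 5 chromosomes, the 3 listed stretches, the 10 largest 20 kb stretches in each direction and a fixed gene list. The members and lists were chosen with earlier results of these data known. GC content was not corrected, since no mm9 sequence was used here. Python 3.11.15, numpy 2.4.6, pandas 2.3.3 and scipy 1.17.1 were used. Alternatives covered scaling, windows, filters, limits, bin size and the denominator input.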

Additional observations from a re-analysis of the deposited data

How the results depend on the processing

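No paired analysis was possible because each group is 1 library with no replicate number in the labels. Counting error on these sums is so small that most shifts below exceed it. In the order of chromosomes 3, 6, 8, 11 and 14, levels were 1.27, 1.05, 1.21, 0.820 and 1.18 with libraries scaled to the median 1 Mb bin, 1.16, 1.15, 1.19, 0.807 and 1.16 as ratios of summed counts, and 1.25, 1.07, 1.02, 0.931 and 0.989 over input PV, where chromosome 14 changed side. Medians of 100 kb bins were 1.21, 1.05, 1.19 and 0.806 on chromosomes 3, 6, 8 and 11. Chromosome 3 was 1.23 with no filter on low bins, and chromosome 14 was 1.166 with every other window. Other alternatives for these levels moved them by less than the counting interval.

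With limits of 1.2 or 0.8, 204 bins of 1 Mb were higher and 71 lower, and with 1.5 or 0.5, 217 and 0 bins of 100 kb. For bins of 20 kb, limits of 2 or 0.33 left 9 and 0, bins of 10 kb gave 817 and 463, bins of 50 kb gave 40 and 60, and over input PV 714 were raised. With input BV at 0.75 or more, 159 were raised and 227 lowered, so the counts moved in opposite directions from 302 and 182. Relative to the long segments, chosen after seeing the data, 16 were raised and 3 lowered, or 18 and 2 with bins filtered on input PV.

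The focal gain of chromosome 6 was 11.1 over its flanks. The stretch of chromosome 17 went from 230.9 over input BV, with all windows, to 0.984 over input PV. The 6 segments of chromosome 3, from the centromere side, were 0.977, 1.71, 0.967, 1.72, 1.37 and 0.644 under the median scaling and 0.981, 1.76, 0.983, 1.72, 1.35 and 0.647 over input PV. The 2 of chromosome 6 were 1.03 and 1.39 under each of these. Both settings for the segments were added after seeing the data. With 4 reads in input BV, depth limits the ratio on chromosome 17.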

Other observations

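Among the 14 other autosomes, small differences between input BVSC and input BV exceeded counting error. Chromosomes 1 and 16 stood at 1.02 and 1.03, and chromosomes 18 and 19 at 0.921 and 0.918. Over input PV, chromosome 19 was again at 0.918, chromosome 18 at 0.933, chromosome 16 at 1.03 and chromosome 1 at 1.06. The spread of 1 Mb bins within these chromosomes (SD 0.039 to 0.053 over input BV) was of the same order. GC content was not measured here.

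A few bins of 20 kb outside the stretches described above passed the limits relative to their segment. The largest, at the end of chromosome 13 from 120280001 to 120300000, had levels of 2.94 in input BVSC, 1.76 in input BV and 0.920 in input PV. On chromosome 9, the bins starting at 35760001 and 35800001 stood at 1.504 and 1.511 times their chromosome, and the bin from 37920001 to 37940000 stood at 0.491. The latter had levels of 0.461 in input BVSC, 0.992 in input BV and 0.694 in input PV. Bins starting at 107540001 on chromosome 14 and at 85780001 on chromosome 18 stood at 1.55 and 1.52, with input BV at 0.580 and 0.515. The bin on chromosome 12 from 105180001 to 105200000, at 0.481, lay just above the filter on input BV, at 0.514.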
